A study of Drosophila melanogaster with 2 samples.

Results

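The 8 genes described here, trachealess (trh), breathless (btl), branchless (bnl), ventral veins lacking (vvl), ribbon (rib), CrebA, fork head (fkh) and salivary gland-expressed bHLH (sage), are regulators of the embryonic trachea and salivary gland, among 13945 protein-coding genes of the annotation. Each gene was given every peak whose summit lay in its body or within 10 kb on either side. The values come from chromatin immunoprecipitation with sequencing (ChIP-seq) of Bicoid, a homeodomain protein made in the Drosophila melanogaster embryo from maternal mRNA at its anterior end, which directs head and thorax formation. Bicoid carried a C-terminal green fluorescent protein in a stable transgenic line, the antibody recognised the fluorescent protein, while the labels' own antibody entry reads bcd. The 2 libraries, biological replicates 1 and 3, were made from whole embryos of pooled sexes aged 0 to 24 hours with sonicated fragments of 200 to 800 bp. Both belong to 1 group, so that no condition can be compared, and the peak lists hold no read counts, so that the depth is unknown. A peak in whole embryos cannot be assigned to tracheal, salivary or any other cells, and no measure of expression was part of the data.

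The trachea is the insect airway, and the salivary gland is a secretory tube, and both form by invagination of ectodermal placodes. In the trachea, the fibroblast growth factor (FGF) ligand Branchless attracts migrating branches that carry its receptor Breathless, downstream of Trachealess, a bHLH-PAS factor that acts with its partner Tango (tgo), and of the POU-domain factor Ventral veins lacking. In the salivary gland, the FoxA factor Fork head, the bHLH factor Sage and the bZIP factor CrebA drive secretory genes, and Ribbon, a BTB-domain nuclear protein, is needed for tube shape in both organs.

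In all, 7 of the 8 genes held a summit of the thresholded peak set, which the authors obtained by irreproducible discovery rate (IDR) analysis of the replicate and pooled lists, and btl held none. The background was 68.4% of all protein-coding genes with a summit in the same window. The strongest peak of the 8 genes lay at the fkh promoter, 213 bp upstream of its transcription start site (TSS), and the next lay in trh, 426 bp upstream of an internal TSS. The peaks of bnl and rib lay in introns, those of CrebA around its start and in its first intron, and those of vvl and sage outside the gene.

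The base sequence is shown for the strongest peak of 6 of the genes, so that the words counted at the summits and the unusual base content at fkh can be seen. Each is the 201 bp around the summit on build dm6, from the RefSeq genome, 5′ to 3′ in the direction of transcription of the gene. Capitals mark the Bicoid word TAATCC, the promoter words TATAAA and then CCAAT, and the short palindrome ATCGAT, on either strand, so that reverse complements also appear. The trh window is chr3L:377642-377842 on the minus strand, the bnl window chr3R:19831064-19831264 on the minus strand, and the vvl window chr3L:6797493-6797693 on the plus strand. The CrebA window is chr3L:15534796-15534996 on the plus strand, the fkh window chr3R:28585377-28585577 on the minus strand, and the sage window chr3R:9260506-9260706 on the minus strand.
trh: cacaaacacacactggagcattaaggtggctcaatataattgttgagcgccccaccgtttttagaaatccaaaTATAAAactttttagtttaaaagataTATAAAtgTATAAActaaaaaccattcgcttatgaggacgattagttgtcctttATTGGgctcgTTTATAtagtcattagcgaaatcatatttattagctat
bnl: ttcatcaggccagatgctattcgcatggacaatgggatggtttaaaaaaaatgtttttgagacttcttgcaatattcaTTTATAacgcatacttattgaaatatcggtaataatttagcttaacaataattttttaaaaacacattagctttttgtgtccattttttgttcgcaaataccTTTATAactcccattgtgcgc
vvl: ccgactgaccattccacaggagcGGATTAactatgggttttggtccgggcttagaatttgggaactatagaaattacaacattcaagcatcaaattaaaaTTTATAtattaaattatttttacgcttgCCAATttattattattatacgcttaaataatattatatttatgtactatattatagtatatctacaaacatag
CrebA: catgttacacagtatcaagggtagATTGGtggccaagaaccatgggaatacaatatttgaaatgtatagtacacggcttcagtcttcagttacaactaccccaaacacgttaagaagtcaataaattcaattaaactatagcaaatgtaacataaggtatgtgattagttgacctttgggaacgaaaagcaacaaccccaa
fkh: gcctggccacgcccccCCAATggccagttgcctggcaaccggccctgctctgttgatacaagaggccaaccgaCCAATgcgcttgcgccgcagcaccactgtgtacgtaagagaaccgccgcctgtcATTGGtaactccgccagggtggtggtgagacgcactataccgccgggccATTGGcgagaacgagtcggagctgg
sage: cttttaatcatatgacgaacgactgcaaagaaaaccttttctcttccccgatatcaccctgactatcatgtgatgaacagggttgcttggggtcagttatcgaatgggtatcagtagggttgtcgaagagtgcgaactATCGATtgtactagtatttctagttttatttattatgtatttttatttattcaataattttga

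The 7 genes held 18 entries of the IDR set of 6054, and these formed 15 separate regions once overlapping entries were merged. The windows of the 8 genes added up to 276 kb, which gives 6.52 entries per 100 kb, against 4.52 per 100 kb over the 133.9 Mb of the chromosome arms and a median of 4.69 over the windows of all protein-coding genes. Long windows hold a summit more often. In 5 equal groups of window length, the longest held trh, btl, bnl, rib and CrebA, of which 4 of 5 had a summit against 80.0% of its genes. The next longest group held vvl and fkh, both with a summit against 73.9%, and sage fell in the second shortest group, where the share was 65.9%. The members' share is thus close to that of other genes with windows of their length. With 20 kb on either side, still 7 of the 8 had a summit, against 83.2% of protein-coding genes. The count rests on the window: the gene bodies alone held 7 summits in 4 genes, trh, bnl, rib and CrebA. No share of all protein-coding genes is given for gene bodies alone.

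**Figure D1:**
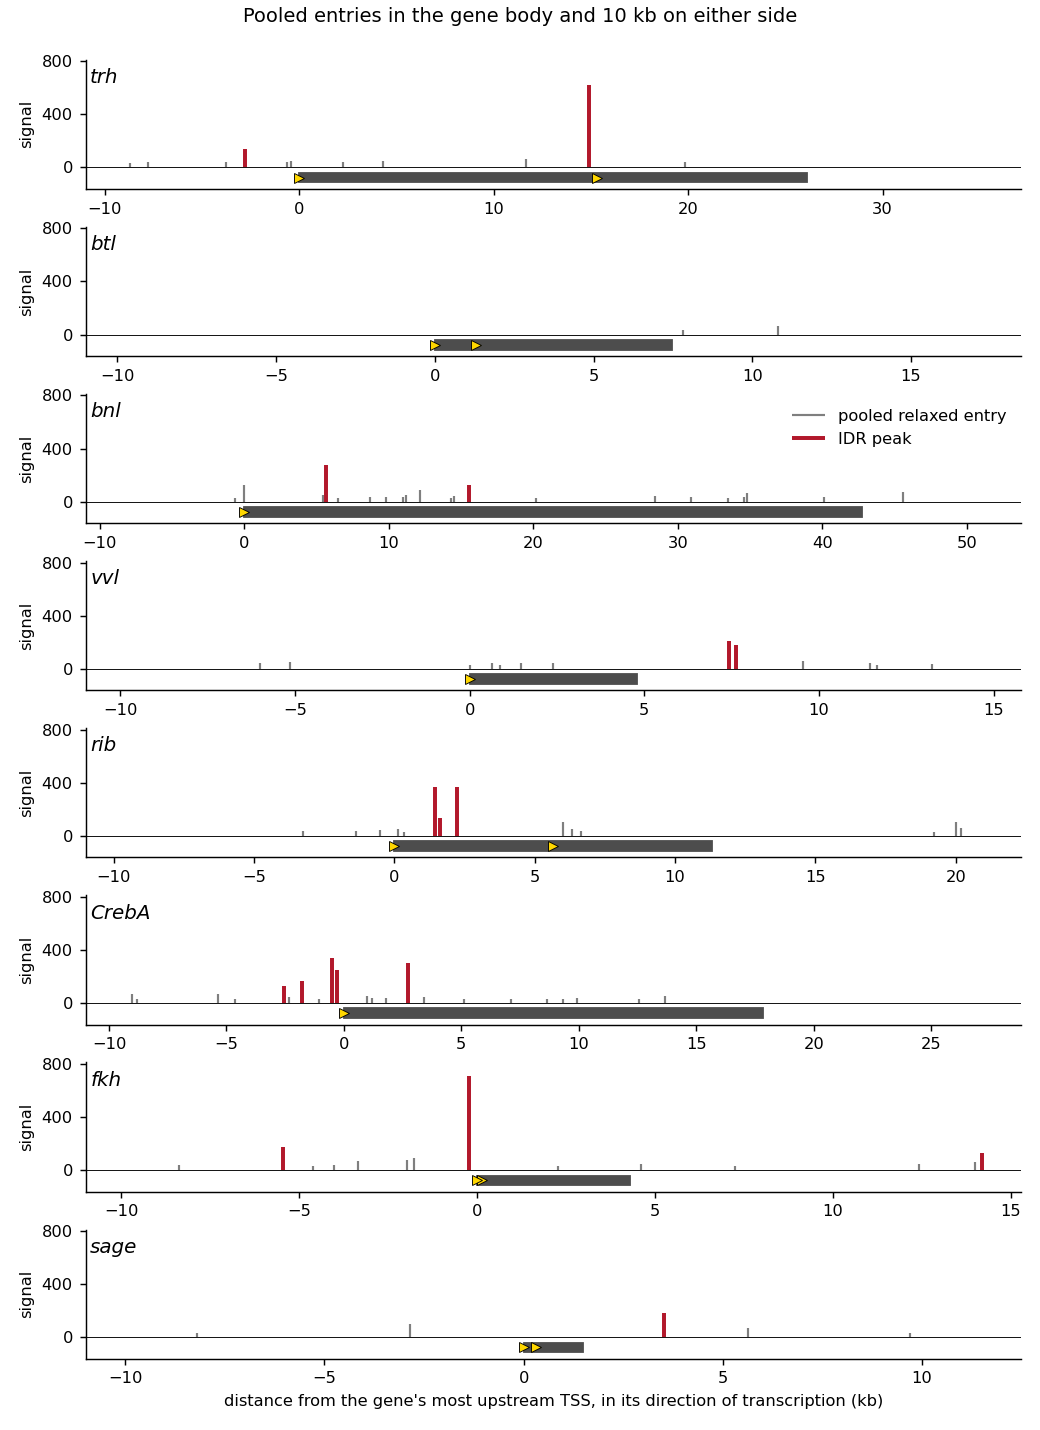
Pooled relaxed entries and IDR peaks (red) of the 8 genes, by distance in kb from the most upstream TSS in the direction of transcription (horizontal axis, a different range for each gene) and by the authors' pooled signal value (vertical axis); bars are gene bodies and triangles are TSSs. The fkh promoter peak and the trh peak before the internal TSS, with signals of 706 and 622, stand above all other entries, and btl shows 2 low entries past its end.

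Most of the 18 summits lay away from promoters. Only 5 of 18 (27.8%) were within 500 bp of any TSS, against 47.0% of all IDR summits, and the median distance to the nearest TSS was 1801 bp, against 599.5 bp over all IDR summits. Of the 5, 4 were near the gene's own TSS, in trh, fkh and CrebA (2 overlapping entries). The remaining 1, assigned to sage, was at the promoter of a neighbour. By annotation, 7 summits were in introns, 10 were intergenic and 1 was in an exon of a noncoding RNA gene. No share over all IDR summits is given for these classes, so whether they differ from the whole set is not known here. A limit of 250 bp left 2 summits near a TSS, those at fkh and at the neighbour of sage.

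Signal values of the 18 entries had a somewhat lower median than the whole set, of which they are part. The signal value is a score of the authors' peak calling without a physical unit, and it serves here to rank peaks within a list. The 18 entries ran from 126 to 706 with a median of 196, against 125 to 4627 with a median of 223 over all IDR peaks. A total of 8 of 18 were above the median of all IDR peaks, 5 were among the weakest 10% and 1 was among the strongest 10%. Counting protein-coding genes whose strongest peak was at least as high, fkh was matched by 14.0% of genes, trh by 17.6%, rib by 33.7% and CrebA by 37.1%. The same share was 44.7% for bnl, 52.6% for vvl and 57.8% for sage. These shares cover windows of all lengths and were not taken by window length, while trh, bnl, rib and CrebA are in the longest group.

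**Figure D2:**
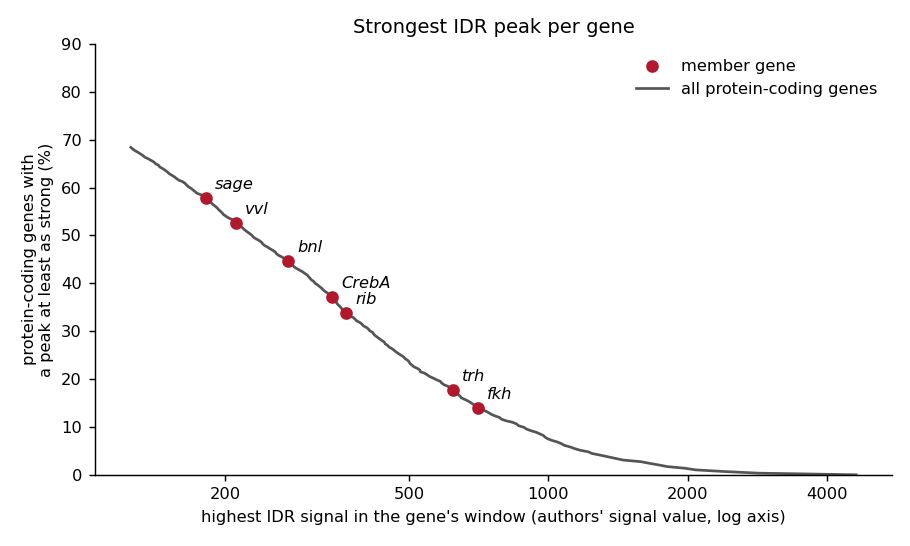
Share of all protein-coding genes (vertical axis, %) whose strongest IDR peak in the window reaches a given signal value (horizontal axis, log scale); the line is all protein-coding genes and points are the 7 genes with a peak. fkh and trh sit lowest on the line, at 14.0% and 17.6%, and sage highest, at 57.8%.

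Among the transcription factors of the trachea, trh had the clearest peak. It spanned chr3L:377614-377905, ranked 610 of the IDR set with a signal of 622, and lay in intron 4 of the long transcripts, 14891 bp from the gene's 5′ end. The internal TSS that starts the shorter transcripts was 426 bp further on. Replicate 1 ranked this peak 592 with a signal of 288, and replicate 3 ranked it 638 with a signal of 343, so both libraries placed it at nearly the same height. In the sequence shown above, TATAAA or its reverse complement occurred 4 times, which 0.545% of IDR windows reached. Copies were counted after the letters had been seen. The other trh peak, at chr3L:395202-395625, was 2781 bp upstream of the most distal TSS and much weaker, with a signal of 136 and rank 5488. It was nearer to the noncoding RNA gene lncRNA:CR43969, at 1820 bp, and ranked 7535 in replicate 1 and 5489 in replicate 3. No IDR summit lay at the distal trh promoter itself, where the pooled relaxed list had an entry with its summit at -429 bp and a signal of 48.6.

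For vvl, the 2 IDR entries overlapped one another at chr3L:6797381-6797804 and chr3L:6797583-6798006, and their summits were 2652 and 2854 bp beyond the end of the gene. Their signals were 211 and 178. They overlapped the same replicate entry, which ranked 4508 in replicate 1 with a signal of 78.5 and 2827 in replicate 3 with a signal of 133. No other protein-coding gene lay in the vvl window, and the nearest TSS was that of vvl, at 7435 and 7637 bp. The window of the stronger entry was the only 1 of the 18 with the word TAATCC, for which Bicoid is known, and it lay at -77 to -72 bp from the summit, as GGATTA on the strand shown.

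The ligand gene bnl had its stronger peak in its first intron, at chr3R:19831065-19831207, 5653 bp downstream of its TSS. The signal was 274 at rank 2312. The replicate ranks were alike, 2586 with a signal of 120 in replicate 1 and 2414 with a signal of 150 in replicate 3. The second bnl peak, at chr3R:19821052-19821475 in intron 2, 15553 bp from the TSS, was among the weakest of the IDR set with a signal of 126 at rank 5990. It was uneven between the libraries, with rank 15008 in replicate 1 and 3709 in replicate 3. At the bnl TSS itself, a pooled relaxed entry with its summit at -46 bp had a signal of 124 at rank 6146, next to the lowest signal of the IDR set, 125, and it was not in that set. The nearest IDR summit outside the window was 10383 bp from the gene, 111 bp from the TSS of MICU3.

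The receptor gene btl had no IDR summit within 20 kb, the nearest being 20354 bp away. The pooled relaxed list, which also takes in background, had 2 entries in the btl window. The higher had a signal of 60.5 at rank 12555, 9500 bp downstream of the nearer btl TSS and 3336 bp past the gene's end. The other, with a signal of 33.4, was 12 bp from the TSS of CG8100. Replicate 1 had 0 relaxed entries in the window, and replicate 3 had 5, the highest with a signal of 55.4 at rank 7718. All 5 lay past the end of btl. In all, 8 of the 8 genes held a pooled relaxed summit, against 92.9% of protein-coding genes. The pooled density at btl was 7.28 per 100 kb, and 85.8% of coding windows had at least that density.

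The tube-shape gene rib, on chromosome 2R, had 3 IDR entries in the only intron of its long transcript, 1433, 1640 and 2240 bp downstream of the TSS. They were at chr2R:19271351-19271615, chr2R:19271506-19271929 and chr2R:19272183-19272445, with signals of 365, 132 and 366. The first and second overlapped one another and the same replicate entries. These entries ranked 8434 in replicate 1 with a signal of 45.9 and 751 in replicate 3 with a signal of 319. The ratio of the replicate 3 signal to the replicate 1 signal was 6.95, which 0.565% of IDR peaks with an entry in both lists reached. The last peak ranked 4932 in replicate 1 with a signal of 73.0 and 858 in replicate 3 with a signal of 293, a signal ratio of 4.01. In replicate 1 the strongest entry of the rib window was not in the intron but past the end of the gene. It lay 14370 bp downstream of the internal rib TSS, with rank 4216 and a signal of 82.6. The window held 8 other protein-coding genes. The rib peaks were therefore high mainly through 1 library, and whether either library gives the better estimate was not tested.

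CrebA, the secretory regulator, had the most peaks of the 8 genes, 5 entries in 4 regions, all nearer than 3 kb to its TSS. In the longest of the 5 window groups, 17.5% of protein-coding genes had at least as many. That group runs from 26.5 to 1986 kb, and the CrebA window is 37.8 kb. The strongest was at chr3L:15534768-15534956, with its summit 499 bp upstream of the TSS and a signal of 341 at rank 1675. It overlapped the entry at chr3L:15534890-15535313, 293 bp upstream, with a signal of 251. Both overlapped the same replicate entries, with rank 2240 in replicate 1 and 1495 in replicate 3. An intronic peak at chr3L:15537912-15538335, 2729 bp downstream in intron 1, had a signal of 300, with ranks of 2471 in replicate 1 and 1933 in replicate 3. The 2 entries further upstream, 1782 and 2558 bp from the TSS, were weak, with signals of 167 and 131, and neither was among the 6054 strongest entries of replicate 1. The summit at 2558 bp was nearer to CG43248, at 1364 bp. Its window held the word CCACGT, for which CrebA itself is known, and no other window of the 18 did.

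The fkh promoter peak, at chr3R:28585356-28585635, was the strongest of all 18 with a signal of 706 at rank 474. It ranked 769 in replicate 1 with a signal of 251 and 360 in replicate 3 with a signal of 455. In the window shown above, A and T made up 36.3% of the bases, and 0.0496% of IDR windows were as low. CCAAT or its reverse complement occurred 4 times in it, which 0.165% of IDR windows, 10 in all, reached. This count was made after the letters had been seen. Of the other fkh peaks, 1 lay 5456 bp upstream at chr3R:28590508-28590931 in an exon of lncRNA:CR43126, with a signal of 176. The other, at chr3R:28570956-28571112, was 9919 bp past the gene's end, just inside the window, with a signal of 128. It was 1 of the 3 entries that replicate 1 ranked higher, with rank 3844 there and 7087 in replicate 3. No other protein-coding gene lay in the fkh window.

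The only peak in the window of sage, at chr3R:9260394-9260817, was 2048 bp past the gene's end and 32 bp from the TSS of ATP6AP2, a gene for an accessory protein of the vacuolar proton pump. Its signal was 182 at rank 3910, with rank 3096 and a signal of 105 in replicate 1, and rank 5577 and a signal of 75.0 in replicate 3. No IDR summit had a sage TSS as the nearest. The sage window held 8 other protein-coding genes, and the fkh and vvl windows held none. The pooled relaxed entry nearest upstream of sage, at -2846 bp from the gene's 5′ end, had a signal of 97.2, and it was not in the IDR set.

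The peaks of these genes mostly ranked higher in replicate 3. Of the 18 entries, 15 (83.3%) were ranked higher in replicate 3 than in replicate 1, against 48.9% of all IDR peaks. Peaks far from promoters show this more often in the whole set: over 500 bp from a TSS, 12 of 13 entries (92.3%) were ranked higher in replicate 3, against 62.0% of such IDR peaks. Counted as merged regions, the numbers were 12 of 15, and 10 of 11 far from a TSS. The median ratio of the replicate 3 signal to the replicate 1 signal was 1.65 over the 18 entries, with a range of 0.673 to 6.95. Over all IDR peaks with an entry in both lists it was 1.18, with 1.42 far from a TSS and 1.05 near one. The relaxed signal values were not scaled between libraries here, so the ratio carries the difference in scale between the lists, and the ranks do not.

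**Figure D3:**
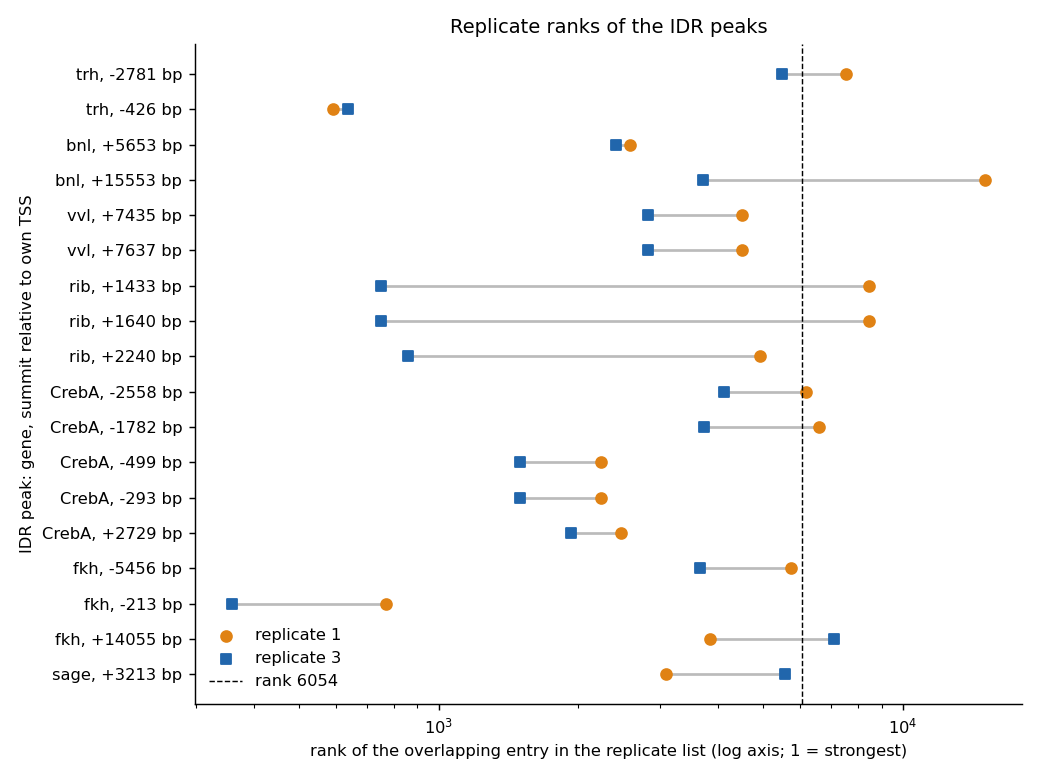
Rank of the overlapping entry in each replicate's relaxed list (horizontal axis, log scale, 1 is the strongest) for the 18 IDR entries, named by gene and by summit position in bp relative to the nearest own TSS; circles are replicate 1, squares are replicate 3 and the dashed line is rank 6054. Squares lie left of circles for 15 of 18, with the widest gap at rib, while trh, fkh (past the gene) and sage have 1 entry each the other way.

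Both replicates placed 11 of the 18 entries (61.1%) among their 6054 strongest, the number of entries in the IDR set, against 69.2% of all IDR peaks. Replicate 3 alone had 17 of 18 there and replicate 1 had 12 of 18. No share over all IDR peaks is given for either replicate alone. The overlapping entries at vvl, rib and CrebA match the same replicate entries and so count more than once. The 6 missing from the top of replicate 1 were in trh, bnl, rib and CrebA, and the 1 missing from replicate 3 was the fkh entry past the gene's end. Over the relaxed lists of 30000 entries each, the 8 windows held 71 summits of replicate 1, 113 of replicate 3 and 102 of the pooled list. Replicate 3 had more than replicate 1 in 5 of the 8 genes, trh, btl, bnl, vvl and fkh, against 33.3% of protein-coding genes. That share covers windows of all lengths and was not taken by window length, while most of these genes have long windows. Replicate 3 had fewer in rib, and as many in CrebA and sage. The largest gaps were at trh, with 3 in replicate 1 and 18 in replicate 3, and at bnl, with 11 in replicate 1 and 24 in replicate 3.

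**Figure D4:**
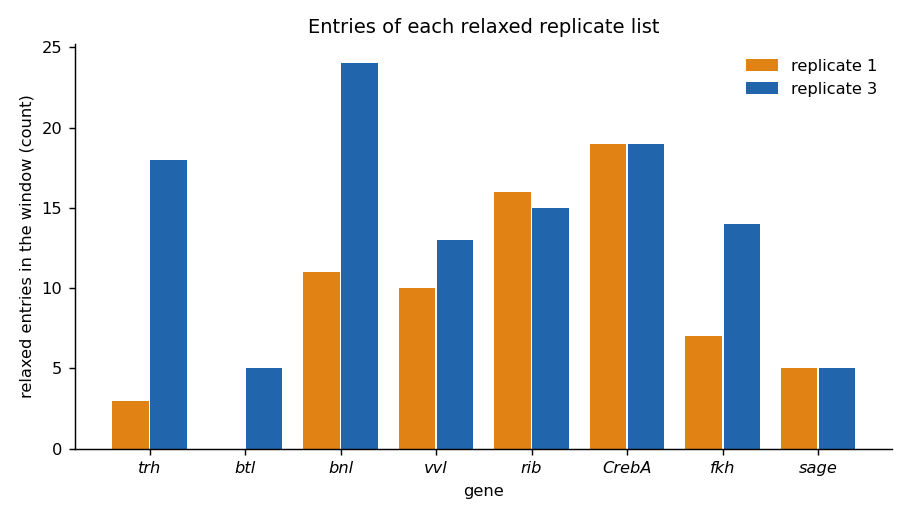
Number of relaxed entries of replicate 1 and replicate 3 (vertical axis, count) in the window of each of the 8 genes. trh, btl, bnl, vvl and fkh have more in replicate 3, and btl has 0 in replicate 1.

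The pooled relaxed list was denser at some of these genes than over the arms. The 8 windows held 37.0 pooled entries per 100 kb, against 22.4 over the arms. CrebA, with 58.2 per 100 kb, had a density that 3.21% of coding windows reached, and fkh, with 57.6, one that 3.41% reached. The density was 52.5 at vvl (5.34% of coding windows), 44.7 at rib (10.6%) and 33.5 at bnl (25.2%). trh and sage, with 23.9 and 23.3, were near the median of coding windows, 22.6. Relaxed entries include background by design, and weak entries were not told apart from it here.

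The words searched on both strands in the 201 bp around each summit were rare or as common as elsewhere. TAATCC, known for Bicoid, was in 1 of 18 windows, against 6.74% of all IDR windows. No member window held TACGTG, known for Trachealess with Tango (3.98% of all IDR windows), ATGCAAAT, known for POU-domain factors (2.82%), or TGTTTAC, known for forkhead factors (6.52%). CCACGT was in 1, against 2.91%. The promoter words TATCGATA, bound by DREF, and GGTCACAC, bound by M1BP, were in 0, against 3.63% and 2.59%. Over 500 bp from a TSS, where 13 of the 18 summits lay, each of these 2 words was in only 0.374% of IDR windows. TATAAA was in 6 of 18 (33.3%), against 35.3%, and GAGAG, known for GAGA factor, in 5, against 21.1%. The counts of both TAATCC and GAGAG moved with the window. With 50 bp on either side of the summit they were 0 for TAATCC and 3 for GAGAG, and with 150 bp they were 2 for TAATCC and 10 for GAGAG. No share over all IDR windows is given for these other window lengths, so the 6.74% and 21.1% cannot be set beside these counts. The homeodomain word TAATTA was in 1, upstream of fkh, against 17.4%, and CAGGTA, known for Zelda, in 0, against 3.98%. With 18 windows, a word in 1 of them or in none cannot be told apart from these shares. Of words chosen after the letters had been seen, CCAAT was in 9 of 18 windows, against 32.8% of all IDR windows. ATCGAT, which TATCGATA contains, was in 2, at CrebA and sage, against 10.4%.

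**Figure D5:**
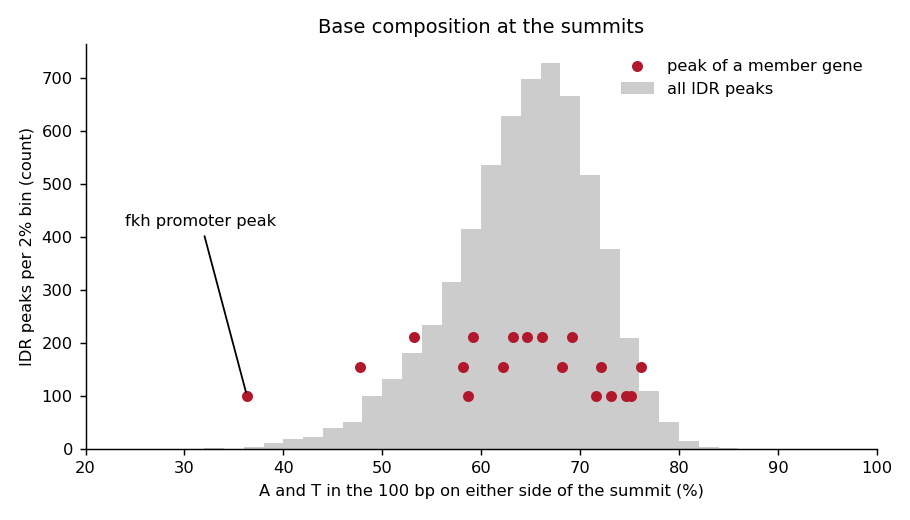
Share of A and T in the 201 bp around each summit (horizontal axis, %) for all 6054 IDR peaks (grey bars, count per bin) and for the 18 entries of the genes (red points, whose height has no meaning). The points average 63.9%, close to the 64.1% of all IDR peaks, and the fkh promoter peak stands apart at 36.3%.

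Base content ranged widely among the 18 windows. A and T averaged 63.9 ± 10.5% (SD over 18 windows, which are not replicates), against 64.1 ± 7.17% over all IDR windows. The intronic CrebA window was highest at 76.1%, the fkh promoter window lowest at 36.3%, and the second rib window was also low at 47.8%.

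Genes that act with these regulators were counted in the same window. Of 9 genes of the tracheal FGF pathway and its partners, 7 (77.8%) had an IDR summit and tgo and Ras85D had none. The strongest was in the window of csw, which encodes a phosphatase of receptor signalling, with a signal of 1157 at 807 bp from the TSS of ph-d. Next came sfl, a heparan sulfate enzyme gene, with a signal of 1123 at 81 bp from the TSS of Bulli. The third was aop, an ETS repressor gene, with a signal of 628 at 1497 bp upstream of its own TSS. Only stumps, the adaptor of the FGF receptor, had its strongest peak within 500 bp of its own TSS, 374 bp upstream with a signal of 525. It is named for this position, after its value was seen. Of 11 tracheal cell fate genes, 9 (81.8%) had a summit and kni and esg had none. The highest was the epithelial factor gene grh with 598, at 2072 bp from its own TSS. It was followed by bs, a serum response factor gene, with 451 at 390 bp from the TSS of CG44812. The gene heca, known as headcase, had 366, and the nearest TSS was that of CG34300, at 10472 bp.

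Of 11 tracheal tube genes, 8 (72.7%) had a summit and serp, Gasp and kune had none. The strongest were at Tsf2, a septate junction gene, with 723, at the polarity gene crb with 548 and at the apical matrix gene pio with 537, and all 3 summits were within 205 bp of the TSS of another gene. Of 16 salivary gland genes, 10 (62.5%) had a summit, and exd, hkb, toe, Sgs3, Sgs7 and Sgs8 had none. The highest was at the glue protein gene Sgs4, with 1138 at 340 bp from the TSS of dnc. The glue protein gene Sgs5 had 453, at 1687 bp from the TSS of sll. The homeodomain gene hth had 450, at 16459 bp from its own TSS. Of 15 secretory genes known as CrebA targets, 13 (86.7%) had a summit and betaCOP and KdelR had none. TRAM, a translocon protein gene, had the highest signal of all 5 lists, 1418, at 92 bp from its own TSS. SrpRbeta followed with 1295, at 12 bp from the TSS of CG32022. The export factor gene Tango1 had 1183, at 944 bp from the TSS of CG31635. Together 47 of 62 genes (75.8%) had a summit, against the 68.4% of protein-coding genes given above. Window length differs between the lists. The median windows of the FGF, cell fate and tube lists, 42.3, 42.1 and 27.5 kb, fall in the longest group, where 80.0% of genes had a summit. The FGF list (77.8%) and the cell fate list (81.8%) were close to that share, and the tube list (72.7%) was below it. The median window of the salivary gland list, 23.0 kb, falls in the next longest group, and its 62.5% was below the 73.9% there. The median window of the secretory list, 22.65 kb, falls in the middle group, and its 86.7% was above the 69.6% there. None of these differences was tested. Of the 47 genes, the strongest peak was within 500 bp of the gene's own TSS in 4, stumps, Sec61alpha, TRAM and Xbp1. It was within 500 bp of any TSS in 25. At Sec61alpha the TSS of Daxx was nearer, at 167 bp. No share over all protein-coding genes is given for these 2 counts.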

How the data were processed

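Peak lists of 2 ChIP-seq libraries of 1 group were used. The authors' lists, in narrowPeak format on build dm6, were a relaxed list for each replicate, a relaxed list of both replicates pooled and the optimal IDR set, per the deposited file descriptions. They hold the authors' signal value, a score on the caller's own scale, the deposited −log10 q value, which 88.8% of IDR peaks share at its maximum of 4.03, so that ranks use the signal, and the summit offset, the other deposited value. No source used here names the peak caller, the aligner or their settings. The dm3 lists and the control experiment were not analysed here.

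Summits were placed with Ensembl release 115 (BDGP 6.54) and read from the RefSeq Release 6 genome with Python 3.11.15, pandas 2.3.3 and numpy 2.4.6. A summit counted for a gene in its body or 10 kb on either side, and as near a TSS within 500 bp. A replicate entry matched an IDR peak by an overlap of at least 1 bp, and the strongest match was taken. Words were searched on both strands 100 bp on either side of the summit. Since 1 group of 2 libraries allows no test, counts stand beside those over all protein-coding genes or all IDR peaks. The counting was tested on simulated data. The rule for named genes takes every member, the 3 genes of highest signal in each list and the gene of any TSS within 500 bp of a member peak. The members and lists were chosen with earlier results of these data known. Of the 62 list genes, 4 were found under current names (heca for hdc, dysf for dys, Tsf2 for mtf, SrpRalpha for Gtp-bp). The alternatives changed the window, the assignment, the threshold, the TSS limit, the overlap and the word window. They also left out each replicate, by counting the 6054 strongest relaxed entries of the other in place of the IDR set. Merged entries and protein-coding TSSs were added after seeing the data.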

Additional observations from a re-analysis of the deposited data

How the results depend on the processing

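The count of 7 genes with an IDR summit stayed at 7 with 5 kb or 20 kb on either side. It was 6 by nearest TSS, 5 in the stronger part of the IDR set and 4 for the gene body alone. Shares of all protein-coding genes are given only for 10 kb and 20 kb, so the gene counts under other settings stand without a background. Leaving out a replicate leaves no IDR set. The 6054 strongest relaxed entries of the other replicate were counted instead, and they also fell in 7 genes, whichever replicate was left out. The 18 summits became 7 in the gene body alone, 32 with 20 kb and 8 among the IDR entries above the median signal. They were 16 with 5 kb and 15 as merged regions. Assignment by nearest TSS also gave 18, but not the same summits. Of the 18 in the windows, 14 had a TSS of their own member gene as the nearest. In place of the IDR set, the 6054 strongest relaxed entries gave 14 summits in replicate 1 alone and 20 in replicate 3 alone. The 5 summits near a TSS became 2 at 250 bp and were 5 at 1000 bp and with protein-coding TSSs only. The 11 entries among the strongest of both replicates were 11 under both other overlap rules. Of 22 alternative word counts, 7 moved. TAATCC (1 window) became 0 at 50 bp and 2 at 150 bp, and GAGAG (5) became 3 and 10. CCACGT (1) became 0 at 50 bp, and TGTTTAC and also CAGGTA (0 each) became 1 at 150 bp. Shares over all IDR windows are given only for 100 bp on either side. No paired analysis was possible because the 2 libraries form 1 group. The lists hold no counts, so depth is unknown and no interval can be given for a peak. The difference between the replicates was not tested.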

Other observations

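The nearest IDR summits beyond the windows, which end 10 kb from each gene, were 10383 bp from bnl, 10803 bp from rib, 12687 bp from vvl, 13408 bp from CrebA, 14373 bp from fkh, 15555 bp from sage, 15728 bp from trh and 20354 bp from btl. The bnl and rib neighbours lay close to other promoters, 111 bp from the TSS of MICU3 and 3 bp from that of mip40. The vvl neighbour had vvl as its nearest TSS, at 17470 bp, with a signal of 180. PH4alphaSG1 and PH4alphaSG2, which encode prolyl hydroxylases of the salivary gland, shared their strongest peak, with a signal of 144.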
